A study of Mus musculus with 5 samples.

Results

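Broad H3K36me3 domains are the peaks wider than 1000 bp that shared no base with any peak of the other library. They numbered 983 of 7231 peaks in series 1 and 355 of 10243 in series 2, or 1338 of 17474 in all. The rule used the width of each peak and its overlap with the other list, so widths and the lack of overlap are description and were not tested. Both libraries were chromatin immunoprecipitations with one antibody (Abcam ab9050) from wild-type B6 mouse thymus. The cells were mTEClo, medullary thymic epithelial cells sorted as positive for EpCAM and UEA-1 and low for Ly51 and CD80, at 50000 cells per assay. Series 1 was called by the authors against 2 input libraries and series 2 against 1 input library. The labels give individual mice but tie none to a library, and no age. With 1 ChIP library per series, nothing below has a replicate test, and all differences between the series compare these libraries.

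Trimethylation of lysine 36 on histone H3 is written by SETD2, an enzyme that travels with elongating RNA polymerase II. The mark is therefore laid down within transcribed gene bodies, typically away from the promoter and toward the 3′ end, where it is read by proteins that act in DNA methylation, mismatch repair and splicing. Medullary thymic epithelial cells are known for displaying self-antigens to developing T cells, and the CD80-low fraction holds their less mature members. A domain here is a stretch that MACS2 called as 1 broad peak. A gene is touched when at least 1 bp of a domain lies between its annotated ends.

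The domains stayed clear of gene starts. RefSeq promoter windows, 250 bp before to 50 bp after a start site, were held for 17491 of 21883 protein-coding genes on build GRCm38.p6. Only 1 of 983 series 1 domains (0.102%, exact binomial 95% interval 0.00258 to 0.565%) and none of 355 series 2 domains (upper limit 1.03%) covered any part of such a window. Among narrower peaks the shares were as low, 9 of 6144 (0.146%) and 13 of 9827 (0.132%). The covered windows were 2 overlapping internal start sites of Rapgef2, a guanine nucleotide exchange factor for Rap GTPases. They lay wholly under a series 1 domain of 1446 bp with a score of 25. The sequences below set 1 of these windows beside the promoters of 3 genes that carry domains only further downstream; they are printed 5′ to 3′ on the gene's strand, with each CG dinucleotide in capitals, because their CpG content is described next. The 3 were picked after their values were seen, to span the highest and the lowest CpG content among the named genes.
Rapgef2, chr3:79145826-79146125, minus strand: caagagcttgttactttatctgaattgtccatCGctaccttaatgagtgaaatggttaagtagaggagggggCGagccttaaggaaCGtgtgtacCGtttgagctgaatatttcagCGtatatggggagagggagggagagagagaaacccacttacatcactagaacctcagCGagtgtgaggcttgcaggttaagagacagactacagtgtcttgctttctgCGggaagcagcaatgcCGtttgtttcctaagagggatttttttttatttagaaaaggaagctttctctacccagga
Srsf6, chr2:162931258-162931557, plus strand: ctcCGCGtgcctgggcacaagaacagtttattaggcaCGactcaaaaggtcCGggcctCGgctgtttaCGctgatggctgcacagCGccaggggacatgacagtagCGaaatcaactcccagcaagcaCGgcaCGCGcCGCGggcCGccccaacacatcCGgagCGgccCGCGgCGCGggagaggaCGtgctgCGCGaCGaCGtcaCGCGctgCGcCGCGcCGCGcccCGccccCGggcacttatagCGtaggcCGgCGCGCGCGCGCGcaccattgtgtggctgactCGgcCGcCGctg
Rnf213, chr11:119389849-119390148, plus strand: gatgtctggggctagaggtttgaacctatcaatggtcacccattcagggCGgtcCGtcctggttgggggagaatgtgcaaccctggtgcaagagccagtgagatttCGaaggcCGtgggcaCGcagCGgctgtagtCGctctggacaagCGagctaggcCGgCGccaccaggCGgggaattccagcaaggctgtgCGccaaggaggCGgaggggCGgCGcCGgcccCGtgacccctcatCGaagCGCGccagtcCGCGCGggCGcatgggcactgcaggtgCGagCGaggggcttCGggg
Il20rb, chr9:100486424-100486723, minus strand: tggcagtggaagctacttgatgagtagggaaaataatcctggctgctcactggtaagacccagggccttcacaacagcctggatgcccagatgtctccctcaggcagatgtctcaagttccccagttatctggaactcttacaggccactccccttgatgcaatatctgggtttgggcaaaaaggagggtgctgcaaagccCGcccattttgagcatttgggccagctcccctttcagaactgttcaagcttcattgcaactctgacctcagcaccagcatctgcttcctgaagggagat

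The Rapgef2 window shown holds 8 CG dinucleotides, 0.56 of the number expected from its C and G content. The other covered Rapgef2 window holds 4, or 0.28 of the expected number. The window of Srsf6, an SR protein of splicing, holds 45, or 1.23 of the expected number, and its series 2 domain begins 2.27 kb downstream of the start site. Rnf213 encodes a very large RING finger ATPase. Its window holds 27 CG dinucleotides (0.83 of expected), and its nearest domain begins 32.0 kb downstream. Il20rb, a receptor chain for interleukins of the IL-20 group, has 1 (0.0495 of expected), with its nearest series 2 domain 13.1 kb downstream. Genes with domains only downstream thus lay on both sides of each Rapgef2 window, with Xbp1 at 0.53 and Selenok at 0.59 close to the window shown.

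High CpG content was common among promoters of genes with a domain. The median ratio of observed to expected CG was 0.80 over 761 windows of genes touched in series 1 and 0.75 over 303 windows in series 2, against 0.57 over all 21262 windows. A ratio of at least 0.6 was found in 72.5%, 68.3% and 47.7% of these windows. Long genes have more such promoters, and genes with a domain are long. Within the 4 longest length deciles of genes the shares were 71.4% and 67.6%, against 57.0% of all windows. Motifs were searched as exact letters on both strands. The GC box GGGCGG stood in 62.7% of windows in each series and 46.2% of all windows, and the TATA box TATAAA in 5.78% and 6.93% against 12.6%. In the 4 longest deciles these were 61.4% and 63.3% against 54.9% for the GC box, and 5.65% and 7.03% against 8.53% for the TATA box. The GC box contains a CG dinucleotide, so it overlaps the CpG measure. CCAAT was found in 34.03% and 32.67% of windows, against 38.2% of all. These are descriptions of letters in a window and carry no test.

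Inside genes the domains lay toward the 3′ end. Strand was known for 614 series 1 domains and 240 series 2 domains that touched exactly 1 protein-coding gene. Their median position was 60.5% and 63.0% of the way from the 5′ to the 3′ end. Narrower peaks leaned the same way, with medians of 60.5% and 58.1%. The first quintile of the gene held 10.4% of series 1 and 9.58% of series 2 domain centres. The last 2 quintiles were the fullest, with 27.4% and 23.5% in series 1 and 21.7% and 32.1% in series 2. Narrower peaks of the same lists had 25.4% and 23.8% in the last quintile, so series 2 domains lay above their narrower peaks there and series 1 domains below; the difference between the series was not tested. Only 3 series 1 domains and 1 series 2 domain were centred within 2 kb of the 5′ end, against 29 and 11 within 2 kb of the 3′ end. As shares these were 0.489% and 0.417% against 4.72% and 4.58%. Among narrower peaks they were 0.954% and 1.40% against 5.13% and 4.95%.

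**Figure D1:**
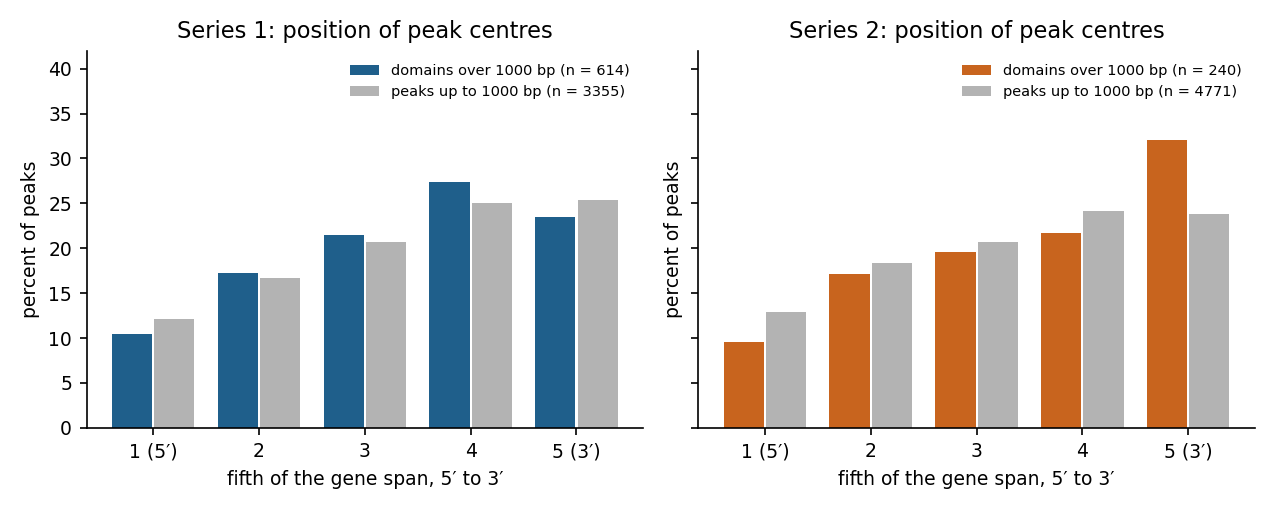
Percent of peak centres (y axis) in each quintile of the gene span from 5′ to 3′ (x axis), for domains (coloured bars) and peaks up to 1000 bp of the same list (grey bars), series 1 on the left and series 2 on the right. Domain bars are lowest in the first quintile, at 10.4% and 9.58%, and the tallest bar is the last quintile of series 2 domains at 32.1%.

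Set against the gene sequence available at each distance, the 5′ end was sparsely covered, by domains and by narrower peaks alike. Series 1 domains covered 105 bp per Mb of gene in the first 1 kb, 162 between 1 and 2 kb, 885 between 2 and 5 kb and 1521 between 5 and 10 kb. Series 2 domains covered none of the first 1 kb, 70.8 bp per Mb between 1 and 2 kb, and 760 between 10 and 20 kb. Narrower peaks covered 332, 769, 1803 and 3166 bp per Mb in the same 4 stretches up to 10 kb in series 1, and 429, 850, 1728 and 2563 in series 2. Counted from the 3′ end, the first 1 kb already held 809 bp per Mb in series 1 and 336 in series 2. The 2 to 5 kb stretch before the 3′ end held 1928 and 782. Gene ends are the outer ends of the RefSeq span, so an internal start site in use would count as gene body here.

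**Figure D2:**
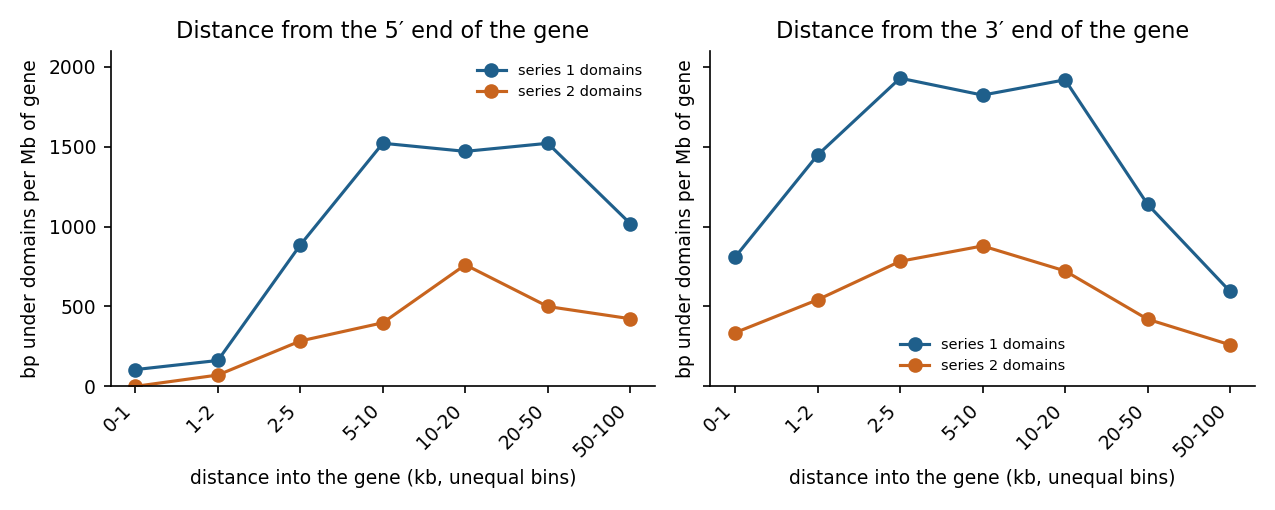
Bases under domains per Mb of gene sequence (y axis) by distance into the gene from its 5′ end (left) and its 3′ end (right), in unequal distance bins (x axis, kb), for series 1 and series 2. Both lines start near 0 at the 5′ end, at 105 bp per Mb and 0, and well above 0 at the 3′ end, at 809 and 336.

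Most domains were only a little wider than the limit. The median width was 1142 bp in series 1 (interquartile range 1067 to 1277 bp) and 1130 bp in series 2 (1055 to 1250 bp). Of the series 1 domains 366 were at most 1100 bp wide and 32 exceeded 2000 bp. In series 2 these numbers were 142 and 9. At the edge of the rule, 434 unshared series 1 peaks lay up to 100 bp below the limit, with a median score of 19, against 366 up to 100 bp above it with a median score of 20. In series 2 there were 192 against 142, each with a median score of 14. The narrowest members included a 1001 bp domain in Brd9 in series 1 and one in Ubr4 in series 2, and a series 2 peak of 999 bp in Ankib1 fell just short. Domains made up 13.6% of series 1 peaks but 27.6% of the bases of that list, and 3.47% and 12.8% in series 2.

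Width and the authors' score were nearly unrelated among domains. The score is a whole number of unstated meaning that starts at 10, and it is read here only within a list. Its median was 21 in series 1 and 16 in series 2, the same as in the narrower peaks of each list. Spearman's rho between width and score was 0.088 over 983 domains and 0.11 over 355, across peaks of 1 library. Scores of 50 or more were held by 2.95% of series 1 domains and 6.67% of its narrower peaks, and by 1.41% and 2.47% in series 2.

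**Figure D3:**
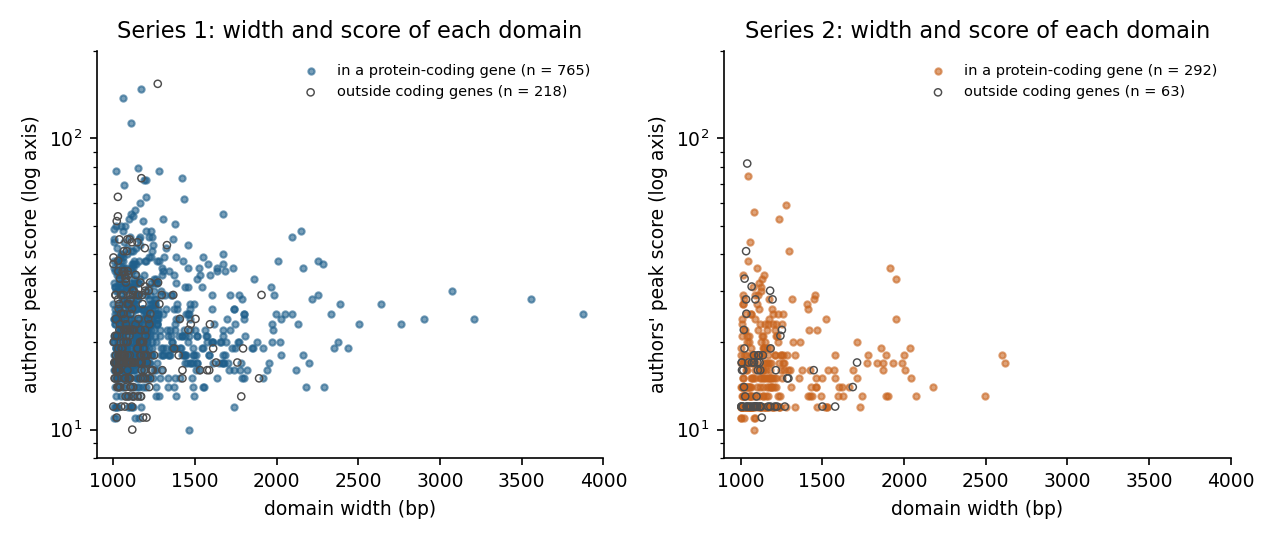
Width in bp (x axis) and authors' score on a log axis (y axis) of every domain, series 1 on the left and series 2 on the right; filled points touch a protein-coding gene and open points do not. The widest domains, up to 3875 and 2618 bp, have scores near the median, and no open point lies beyond 2000 bp.

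Wide domains were genic. A protein-coding gene was touched by 765 series 1 domains (77.8%, exact binomial 95% interval 75.1 to 80.4%) and 292 series 2 domains (82.3%, 77.9 to 86.1%). Narrower peaks did so in 69.8% and 61.5% of cases, and the 104 and 61 wide peaks that met the other list in 91.3% and 91.8%. The binomial intervals cover counting error only. Narrower peaks differed in width between the lists. Their median was 408 bp in series 1 (interquartile range 314 to 676 bp) and 222 bp in series 2 (218 to 228 bp). They are therefore not an equivalent comparator in the 2 series. Among the domains the share climbed with width. In series 1 it was 71.0% at 1001 to 1100 bp, 76.7% at 1101 to 1300 bp, 89.8% at 1301 to 1500 bp, 88.1% at 1501 to 2000 bp, and all 32 wider ones touched a coding gene. In series 2 it went from 76.8% through 82.3%, 96.2% and 89.2% to all 9. Nearly all touching domains, 756 and 290, lay entirely inside 1 coding gene.

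The widest series 1 domain ran over 3875 bp of Brd8, a bromodomain protein of the TIP60 histone acetyltransferase complex (chromosome 18, 34602109 to 34605983, mm10; score 25). A neighbouring domain of 1975 bp brought the covered share of the gene to 22.3%, the largest among series 1 genes of at least 5 kb. Zfp326, which links transcript elongation to splicing, carried a domain of 3555 bp and no series 2 peak at all. Trim25, an E3 ligase of antiviral RNA sensing, carried one of 3210 bp over 15.4% of its span. Zup1, a deubiquitinase of lysine-63-linked chains, carried 3071 bp and the GMP synthase gene Gmps 2905 bp. Ccz1, part of the exchange factor for Rab7, carried 2759 bp, the H3K36 demethylase gene Kdm2a 2637 bp, and the H3K4 methyltransferase gene Kmt2a 2505 bp. Their scores lay between 23 and 30.

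The widest series 2 domains were narrower and lay in other genes. Ddx6, an RNA helicase of mRNA decay and storage, carried one of 2618 bp with a score of 17. Anxa5, a calcium-dependent phospholipid-binding protein, carried 2603 bp. Il20rb carried 2497 bp and a second domain of 1003 bp. Eif3a, the largest subunit of translation initiation factor 3, carried 2177 bp, and the growth factor receptor gene Egfr 2042 bp. Rnft1, Xpo6 (the exportin of actin) and Myo1e (a class I myosin) had 2073, 2039 and 2009 bp. Scores of these domains were 13 to 19.

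Most of the largest covered shares fell in short genes, and shares are given for genes of at least 5 kb. Every domain exceeds 1000 bp by the rule, so a domain inside a short gene covers a large share by construction. Brd8, with the largest share in series 1, is 26.3 kb long. In series 2 a domain lay over 35.1% of Xbp1, a transcription factor of the unfolded protein response (chromosome 11, 5520641 to 5525993, 5.35 kb). It ran past the 3′ end, with 1879 of its 1989 bp inside the gene. Srsf6 was covered over 31.7% and Pbx2, a homeodomain protein, over 22.3%. Among series 1 genes of at least 5 kb the largest shares after Brd8 were 20.6% of the predicted gene Gm52310, 20.2% of Snrpb (a core Sm protein of the spliceosome), 19.7% of Selenok (a selenoprotein of the endoplasmic reticulum), 18.9% of Cdkn3 (a phosphatase of cyclin-dependent kinases) and 18.8% of Eef1g (a subunit of translation elongation factor 1). None of Xbp1, Srsf6, Pbx2, Snrpb, Selenok, Cdkn3 and Eef1g held a peak in the other series. The median share of span under domains was 2.10% over 722 genes in series 1 and 2.07% over 284 in series 2.

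Domains with the highest genic scores were 1061 to 1283 bp wide in series 1 and 1048 to 1277 bp in series 2. The medians over all domains were 1142 and 1130 bp. The highest scores fell in scattered genes. In series 1 they were 148 in Pafah1b1 (LIS1, a regulator of dynein), 138 in Dpp10 (an auxiliary subunit of potassium channels, in a gene of 1514 kb), 113 in Acbd5 (a peroxisomal tether), 79 in Fancm and 77 in Pde7a. A domain 31.0 kb from the nearest coding gene on chromosome 13 exceeded them at 154. In series 2 the top genic scores were 74 in Acad11, 59 in Ptprd, 56 in Gcfc2, 53 in Osbpl10 and 44 in Slc35a3, and a domain on chromosome X outside genes had 82.

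The domains touched 722 protein-coding genes in series 1 (3.30% of 21883) and 284 in series 2 (1.30%). Of these, 675 and 275 had a single domain. Long genes were hit most. Touched genes had median lengths of 60.0 and 64.5 kb against 17.2 kb over all coding genes, and the share touched was 9.41% and 3.97% in the longest length decile (median 185 kb) but 0.411% and 0.137% in the third decile (median 5.67 kb). In series 1, 5 genes held 3 domains each: Kdm5a and Kdm5b, which are H3K4 demethylases, and the very long neuronal genes Atrnl1, Tenm3 and Dpp10. In series 2 only Rnf213 held 3.

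Domains of both series met in 54 genes, 0.247% of coding genes. This is 7.48% of the series 1 genes and 19.01% of the series 2 genes, and 952 genes (4.35%) were touched in either. Among all coding genes of the same length deciles, 2.57% held a series 2 domain and 6.54% a series 1 domain. Counting any peak of the other list, 416 of 722 series 1 genes (57.6%) and 160 of 284 series 2 genes (56.3%) held one elsewhere in the gene, against 37.3% and 31.6% of genes of the same length deciles. By the rule the domains themselves cannot overlap, and the median gap between the nearest domains of the series within these 54 genes was 13.98 kb.

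Rnf213 (chromosome 11, 119389950 to 119487418) had most bases under domains of both series. Series 1 placed domains of 1455 and 1068 bp with scores of 43 and 69 at 33.7% and 62.5% of the way along the gene. Series 2 placed 3 further 3′, of 1949, 1913 and 1098 bp with scores of 33, 36 and 36, at 67.7%, 81.3% and 95.2%. The nearest pair lay 3.52 kb apart. In Tpr, which encodes the filament of the nuclear basket, a series 1 domain of 2288 bp and a series 2 domain of 1293 bp were separated by 555 bp, and a second series 1 domain of 1268 bp lay near the 3′ end. Kdm5a had 3 series 1 domains of 1082, 1357 and 1142 bp and 1 series 2 domain of 1113 bp, 5.17 kb from the nearest. In Ep300, a histone acetyltransferase, a series 1 domain of 1692 bp lay at 61.2% of the gene and 2 series 2 domains of 1250 and 1261 bp at 78.0% and 87.5%. Anxa5 had 1193 bp in series 1 and 2603 bp in series 2, 3.87 kb apart, and Egfr 1032 and 2042 bp, 14.1 kb apart. The other genes of the 10 with most bases were Atrnl1, Rapgef2, Zbtb20, Birc6 (a giant ubiquitin-conjugating inhibitor of apoptosis) and Smarca2 (an ATPase of SWI/SNF remodellers).

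**Figure D4:**
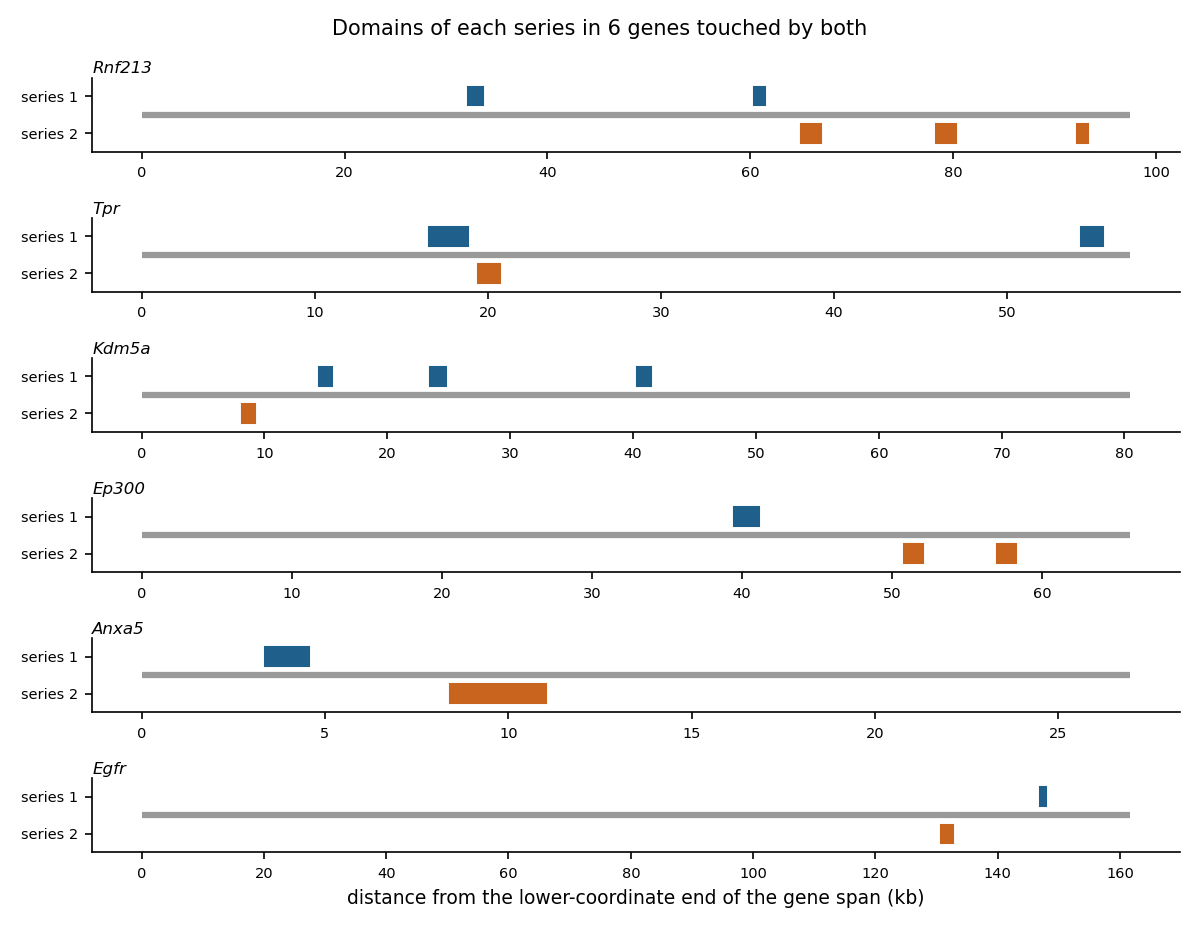
Domains of series 1 (blue, above) and series 2 (orange, below) along the span of 6 genes touched by both (grey line), with distance in kb from the lower-coordinate end of each gene on the x axis. The domains of the series lie side by side without sharing a base, the nearest pair 555 bp apart in Tpr and 14.1 kb apart in Egfr.

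Grouped by function, genes that act on chromatin and RNA helicases had the largest shares touched in series 1, and RNA helicases in series 2. The order of these groups in series 1 depends on the genes counted. Chromatin genes stood at 16.9% and helicases at 12.7%, but among genes with no coding neighbour within 5 kb chromatin genes stood at 18.2% (16 of 88) and helicases at 27.8% (5 of 18). Of 28 lists, 17 had a larger share of members touched than all coding genes (3.30%) in series 1 and 19 in series 2 (1.30%). Because long genes are hit more often, each share is also set beside that of all coding genes in the same length deciles. Counts over lists were not tested, since each series is a single library and the lists were drawn up with earlier results of these data known.

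Chromatin modifiers and remodellers were touched in 37 of 219 cases in series 1 (16.9%; 5.48% at the same lengths) and 11 in series 2 (5.02%; 2.18%), with 6 in both. With a score of at least 20, 31 remained in series 1 (14.2%, against 2.01% of all coding genes). In series 2 only 1 remained (0.457%, against 0.320%). After Brd8, Kdm5b carried 3687 bp over 3 domains, Phf3, a protein that binds the polymerase tail, 3599 bp over 2, and Kdm5a 3581 bp. Setd2, which writes H3K36me3, had 1 domain of 1099 bp with a score of 26 at 18.1% of its span, Nsd1 (an H3K36 dimethyltransferase) 1 of 1162 bp with a score of 43, Kdm2a 1 of 2637 bp, Kdm4c (a demethylase of H3K9 and H3K36) 2 summing to 2939 bp, and Msh6, a mismatch repair protein that reads the mark, 1 of 1119 bp. Of the 5, Setd2 was always to be looked up and the others were picked after their values were seen, so they say nothing of H3K36 genes as a group. None had a series 2 domain, but Setd2, Nsd1, Kdm2a and Kdm4c had narrower series 2 peaks, 2, 6, 3 and 2 in number.

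Of 170 splicing genes, 18 had a series 1 domain (10.6%; 3.19% at the same lengths) and 8 a series 2 domain (4.71%; 1.24%). Those with most bases were Hnrnpm with 2647 bp in 2 domains, Rbm5, a regulator of exon choice, with 2374 bp in 1, and Ptbp2, the neuronal paralogue of the splicing repressor PTB, with 2214 bp in 2, all in series 1. The Ptbp2 domains lay at 90.2% and 95.4% of the gene, with scores of 72 and 19. Prpf6, a protein of the U5 particle, and Aqr, an intron-binding helicase, had a domain in each series. RNA helicases had 8 of 63 members touched in each series (12.7%; 3.67% and 1.43% at the same lengths). Dhx9, a helicase of transcription and RNA processing, carried 2883 bp in series 1 and no series 2 peak, Ddx6 carried 2618 bp in series 2 and no series 1 peak, and Dhx35 1649 bp in series 1. The list shares members with the splicing list.

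RNA polymerase II, Mediator and elongation genes were touched in 10 of 117 cases in series 1 (8.55%; 3.70% at the same lengths) and 2 in series 2 (1.71%; 1.43%). Cdk12, a kinase of the polymerase tail, carried a domain of 2010 bp, the TFIID subunit gene Taf13 one of 1777 bp over 17.1% of its span, and the Mediator subunit gene Med1 one of 1515 bp. Translation factors and tRNA synthetases had 7 and 5 of 119 touched (5.88% and 4.20%; 3.31% and 1.28% at the same lengths). Eif4g3, Eif3a and Eef1g had most bases, with 2333, 2177 and 2095 bp. Ribosomal protein genes are short, and Rps3a1 alone of 86 had a domain, in series 1 (1.16%; 0.235% at the same lengths). It covered 22.6% of the gene.

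Ubiquitin ligases, adaptors and proteases had 27 of 434 members touched in series 1 (6.22%; 4.31% at the same lengths) and 16 in series 2 (3.69%; 1.70%). Besides Rnf213 and Trim25, Ubr4, a ligase of the N-degron pathway, carried 2859 bp in 2 series 2 domains. Motors and cytoskeletal genes had 25 and 10 of 242 touched (10.3% and 4.13%; 5.75% and 2.30%), led by the actin crosslinker gene Actn1 with 2151 bp, Myo1e, and the spectrin gene Sptbn1 with 1725 bp. Genes of vesicle coats and endosomes had 17 and 8 of 250 (6.80% and 3.20%; 4.55% and 1.79%). Vps13c, a lipid transfer protein, and Sec23ip carried 2934 and 2543 bp, each in 2 series 2 domains, and Snx7 1821 bp in series 1. Kinase cascade genes had 19 and 6 of 225 (8.44% and 2.67%; 5.90% and 2.38%), with Nek9, Map4k3 and Stat5a at 2431, 2254 and 2252 bp. Replication, repair and cell cycle genes had 17 and 4 of 189 (8.99% and 2.12%; 4.32% and 1.69%), led by Cdc16, a subunit of the anaphase-promoting complex, with 2568 bp. Small GTPase regulators, with Rapgef2 first among them, stood at 6.02% and 2.63%, against 5.86% and 2.36% at the same lengths.

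Several further lists held few touched genes. Zinc finger genes had 15 and 8 of 468 members touched (3.21% and 1.71%; 3.02% and 1.18% at the same lengths), Zfp326, Zbtb20 and Zkscan1 having most bases. Proteasome subunits had 2 and 1 of 51 (3.92% and 1.96%; 2.07% and 0.786%), with 1982 bp in Psma6. Autophagy and lysosome genes had 5 and 3 of 84 (5.95% and 3.57%; 3.73% and 1.46%), none over 1201 bp. Nuclear pore and transport genes had 2 and 3 of 53 (3.77% and 5.66%; 5.32% and 2.09%), led by Tpr. Mitochondrial ribosome and respiratory chain genes had 6 and 2 of 255 (2.35% and 0.784%; 1.66% and 0.617%). Of these, Uqcrc1, a core subunit of complex III, had 1865 bp over 14.4% of its span in series 1, and the complex I gene Ndufv2 1874 bp in series 2. Among 124 Wnt, Notch, Hedgehog and TGF-beta genes 4 were touched in series 1 and none in series 2 (3.23% against 4.78% at the same lengths in series 1), with 2353 bp in the BMP signal transducer gene Smad5 and 1675 bp in the Notch ligand gene Jag1. Of 64 genes of MHC and antigen processing 1 was touched in series 1 (1.56%; 1.36% at the same lengths) and none in series 2 (0.496% at the same lengths). It was Erap1, the peptidase that trims MHC class I ligands, with 1155 bp.

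**Figure D5:**
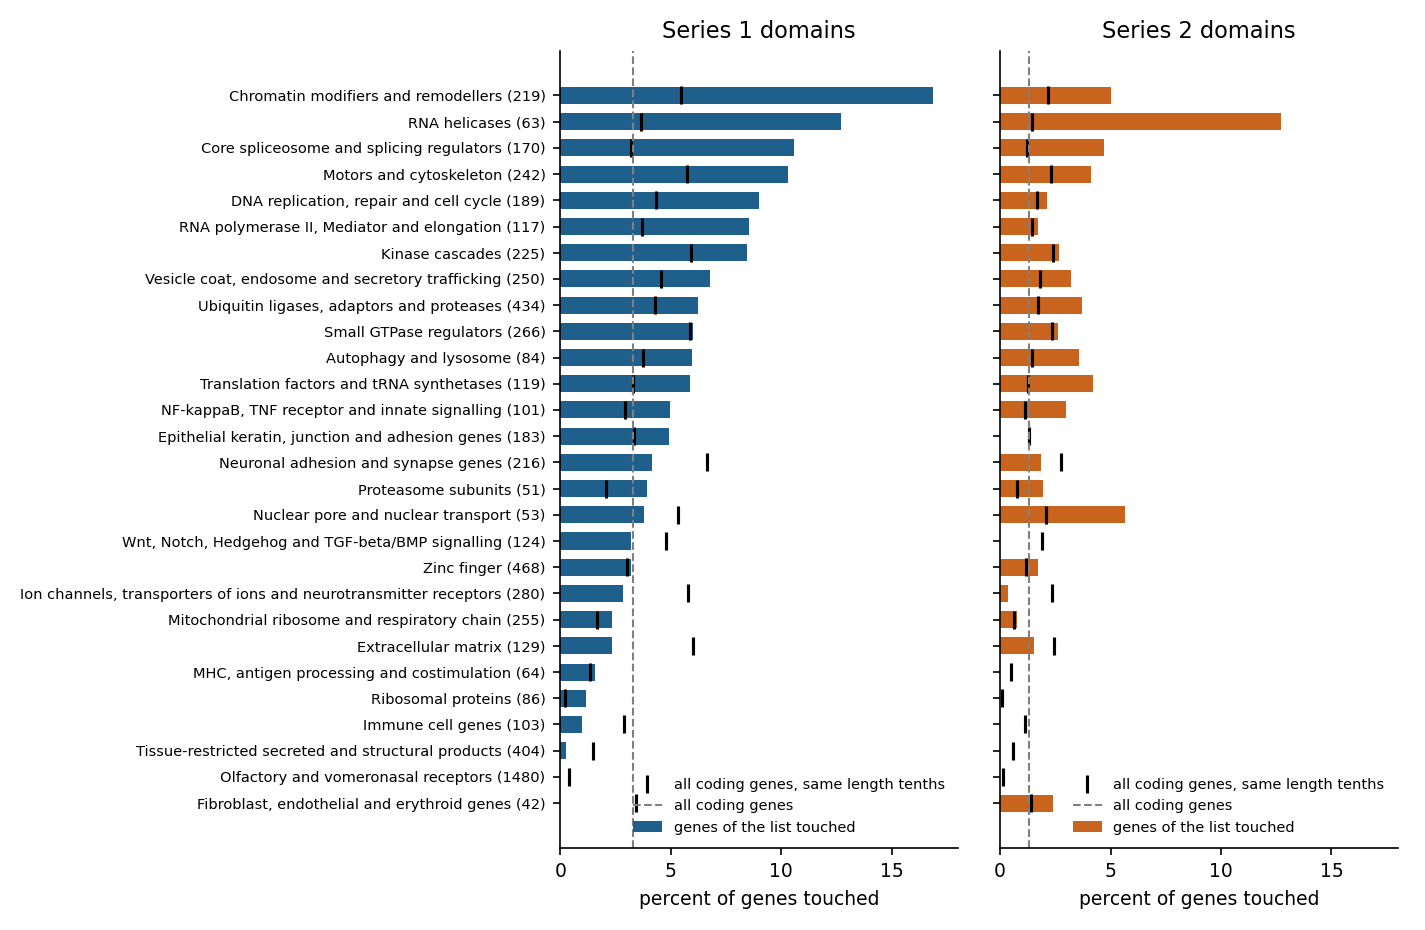
Percent of the genes of each functional list (rows, list size in brackets) touched by a series 1 domain (left) or a series 2 domain (right), with the share of all coding genes (dashed line, 3.30% and 1.30%) and of all coding genes in the same length deciles (black ticks). Chromatin genes reach 16.9% in series 1, RNA helicases 12.7% in each series, and olfactory receptors 0% in both.

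Epithelial keratin, junction and adhesion genes had domains in series 1, 9 of 183 (4.92%; 3.33% at the same lengths). In series 2 there were none, where coding genes of these lengths were touched in 1.30% of cases, and the difference between the series was not tested. The series 1 share fell below that of all coding genes, 1.71% against 3.17%, when genes with a coding neighbour within 5 kb were left out. The 3 with most bases were Lama3, a chain of the epithelial laminin, with 2304 bp in 2 domains, Ctnnd1, which encodes p120 catenin, with 2019 bp, and Dsp, the desmosomal plaque protein desmoplakin, with 1976 bp at 93.0% of its span. All 3 had narrower series 2 peaks, 5, 2 and 1 in number. Of 12 defining markers of medullary epithelium none had a domain, although 4 had a peak of some width in each series, Krt5 among them. Over all coding genes 16.3% and 19.5% had such a peak. So did 2 and 1 of 4 fibroblast, 1 and 2 of 4 B cell, and 0 and 1 of 8 thymocyte markers. Myeloid and endothelial markers had 1 of 4 in each series, and cortical epithelial markers 1 of 5. These few markers were not tested. Aire, Fezf2 and Ccl21a had no peak in either series. Aire and Fezf2 are among 4 markers of mature medullary epithelium, and the others of that group did hold peaks. The group counts were 1 and 2 of 4, from Ciita in both lists and Cd80 in the series 2 list only, and were not tested. NF-kappaB and innate signalling genes, a pathway that medullary epithelium needs for its maturation, had 5 and 3 of 101 touched (4.95% and 2.97%; 2.92% and 1.12% at the same lengths). Among them Traf3ip2 and Irf1 carried 1436 and 1373 bp in series 1. Irf1 is short and had 16.4% of its span covered.

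Lists of genes of other cells and tissues had smaller shares touched than coding genes of their lengths. The exception was fibroblast, endothelial and erythroid genes in series 2. The immune, fibroblast and tissue-restricted lists held at most 1 touched gene per series, and none of these differences was tested. Of 103 immune cell genes 1 was touched in series 1 (0.971%; 2.88% at the same lengths), Ebf1, a B cell factor also expressed by stroma, with 1770 bp over 0.454% of a gene of 390 kb. None was touched in series 2 (1.13% at the same lengths). None of 8 thymocyte markers had a domain, nor did any of the 12 medullary epithelial ones, where 3.30% and 1.30% of all coding genes had one. Fibroblast, endothelial and erythroid genes numbered 0 and 1 of 42 (0% and 2.38%; 3.45% and 1.39% at the same lengths), the 1 being Acta2 in series 2 with 1006 bp and a score of 12. Among 404 tissue-restricted products only Cyp2j9 was touched, in series 1 with a score of 12 (0.248%; 1.497% at the same lengths). Ion channels and neurotransmitter receptors had 8 and 1 of 280 (2.86% and 0.357%; 5.77% and 2.34%), neuronal adhesion genes 9 and 4 of 216 (4.17% and 1.85%; 6.66% and 2.75%), and extracellular matrix genes 3 and 2 of 129 (2.33% and 1.55%; 5.99% and 2.42%). Of 1480 olfactory and vomeronasal receptor genes, which are short with a median of 0.951 kb, none had a domain, against 0.411% and 0.140% at the same lengths. Among genes with no coding neighbour within 5 kb, neuronal adhesion genes stood above all such genes, at 7.84% and 3.92% against 3.17% and 1.22%. Extracellular matrix genes did so only in series 2, at 2.67%, and the other lists of this paragraph in neither series. These last shares are not matched for length.

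Outside coding genes lay 218 series 1 and 63 series 2 domains. Of these, 34 and 8 touched only a non-coding gene or pseudogene, and 184 and 55 no gene of the table. Domains touching no gene were 18.7% and 15.5% of all domains, against 26.5% and 33.4% of narrower peaks. Those touching only a non-coding gene or pseudogene were 3.46% and 2.25%, against 3.63% and 5.09%. Domains outside coding genes lay at a median distance of 107 and 148 kb from the nearest coding gene, with only 16 and 9 within 5 kb. This distance is not given for narrower peaks. The widest that touched no gene had 1893 bp in series 1 (chromosome 6, 74319620 to 74321512, score 15) and 1713 bp in series 2 (chromosome 12, 50757179 to 50758891, score 17). Series 1 domains inside and outside coding genes had median scores of 21 and 18, and in series 2 both had 16.

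Some domains ran over microRNA genes. Whole hairpins of 3 lay under series 1 domains, and the mature sequences are shown for domains that touch a coding gene, to show which small RNAs share the covered stretches, from RefSeq (GRCm38.p6), with the seed (bases 2 to 8) in capitals.
mmu-miR-343: uCUCCCUUcaugugcccaga
mmu-miR-6340: gUCAGCAGcagcuucgcuuuggc
mmu-miR-7073-5p: uGGGGGAAuugaaagacuauga
The hairpin of mmu-miR-343 lies under a domain of 1239 bp that touches Ercc2, a helicase of TFIIH, and that of mmu-miR-6340 under one of 1512 bp that touches Rab22a, a GTPase of endosomes. That of mmu-miR-7073 lies partly under a series 2 domain of 1624 bp in Cnot1, the scaffold of the CCR4-NOT deadenylase, with the 22 bases of its 5p arm fully inside. The 3 seeds differ. A peak over a hairpin within a gene does not separate the hairpin from its host.

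The domains were spread over chromosomes 1 to 19 and X, with none on Y. Their share of all peaks ran from 9.09% on X to 17.4% on chromosome 17 in series 1, and from 1.99% on chromosome 18 to 7.17% on chromosome 19 in series 2. Few lay close to another domain: 30 series 1 (3.05%) and 8 series 2 domains (2.25%) had another of their list within 10 kb, and none within 1 kb. No such distance is given for narrower peaks. Of the genes touched, 46.3% and 56.3% also held a narrower peak of the same list. The nearest peak of the other list lay at a median of 41.9 kb from series 1 and 41.3 kb from series 2 domains, and within 1 kb for 27 and 12 of them.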

How the data were processed

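Peak lists of 2 H3K36me3 ChIP libraries were analysed. The submitters' processing notes name Bowtie2, SAMtools, MACS2 and mm10 and give no version. Settings and the caller's threshold are not stated there. Peak names point to filtered, sorted alignments, called against 2 inputs in series 1 and 1 input in series 2. The authors deposited 1 whole-number score per peak, of unstated meaning. The files hold no read counts, so depth is unknown. The 3 input libraries were not analysed here.

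Domains were peaks with end minus start over 1000 bp and no base in the other list. Gene spans, symbols and promoter windows came from RefSeq (GRCm38.p6, the chromosomes of mm10). Strand came from the promoter table, which matched 79.9% of 21883 protein-coding genes. Of the genes touched, 80.7% in series 1 and 82.7% in series 2 had a window. Where genes overlap, a domain counts for each. Shares of domains carry exact binomial 95% intervals for counting error, and no other test was run. The 28 functional lists were made from symbol families and named genes, 6345 genes in all. The members and lists were chosen with earlier results of these data known, and patterns that caught casein kinases, Poldip3, Itgb1bp2, Cdk5rap1 and Sec14-like genes were narrowed after their hits were seen. Genes named are the widest, highest-scoring and best covered per series, those with 3 domains, those with most bases in both, up to 3 per list, and fixed markers; others, such as the H3K36 enzymes, the single members of lists and the peaks at the rule's edge, were chosen after their values were seen. Alternatives changed width, score, overlap, gene neighbours and joining of peaks. Some results on items withheld for evaluation are not reported here. Interval code was checked on simulated data. The versions were scipy 1.17.1 and pandas 2.3.3 with numpy 2.4.6, under Python 3.11.15.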

Additional observations from a re-analysis of the deposited data

How the results depend on the processing

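The number of domains depends on the limits chosen. In series 1 and series 2 it was 1900 and 761 over 800 bp, 133 and 46 over 1500 bp, 32 and 9 over 2000 bp, 552 and 84 with a score of at least 20, and 29 and 5 with at least 50. Genes touched numbered 1273 and 581, 120 and 42, 32 and 9 at these widths, 439 and 70 with a score of at least 20, and 353 and 136 among genes with no coding neighbour within 5 kb. The share touching a coding gene was 91.0% and 91.3% over 1500 bp, 100% in each over 2000 bp, and 82.1% in series 1 with a score of at least 20. Genes touched in both series numbered 142 over 800 bp, 0 over 1500 and 2000 bp, 6 and 0 with scores of at least 20 and 50, and 24 without close neighbours. Stricter limits leave fewer domains by construction. Counting a peak of the other list within 1 kb as shared gave 956 and 343 domains, asking for 10% of the domain under the other list before calling it shared gave 995 and 359, and joining peaks within 500 bp gave 983 and 355.

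Position was tried with alternatives chosen after seeing the data. The share centred past the midpoint toward the 3′ end, 62.2% and 65.8%, was 66.7% and 100% over 2000 bp, and 78.6% in series 2 with a score of at least 20. These shares rest on few domains. Only 32 and 9 exceeded 2000 bp, and 84 in series 2 had such a score, not all of them with a known position. A change of position with width was not tested. Domains covering a promoter window numbered 5 and 1 over 800 bp and 0 in series 1 over 1500 and 2000 bp. Without the other library, no overlap could be asked for, and the range over the 2 lists was 416 to 1087 domains, 334 to 794 genes, 79.1 to 83.7% in coding genes, 63.6 to 68.9% past the midpoint and 0 to 1 on a promoter window. Lists above the share of all coding genes were 14 and 15 with a score of at least 20, 12 and 5 over 2000 bp, and 16 and 17 of 28 without close neighbours, against 17 and 19; epithelial genes without close neighbours stood at 1.71% in series 1 against 3.17% of all such genes. No paired analysis was possible because the results come from no test. With no read counts, a gene without a domain was below detection as a domain and is not shown to lack the mark.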
